A study of Homo sapiens with 4 samples.

Results

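Of the 26485 gene names measured in paclitaxel-sensitive and paclitaxel-resistant anaplastic thyroid cancer (ATC) cells, 134 were expressed in both wild-type lines and strongly lowered in both resistant lines. The genes were chosen by their FPKM, that is the aligned fragments per kilobase of gene scaled to the depth of the library and summed over rows with the same gene name. A gene belonged to the group when its FPKM was above 5 in both wild-type (wt) libraries and when its higher FPKM in the resistant (PTX) libraries was below 1/3 of its lower wt FPKM. The wt limit left a pool of 7495 expressed genes, so the 134 lowered genes were 1.79% of it. Because these same values chose the genes, their fold changes are a description and were not tested.

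The study grew SW1736 and 8505C, established lines derived from human ATC, and selected SW1736-PTX and 8505C-PTX from them with paclitaxel, a taxane that stabilises microtubules, raised from 1 nM to 1.5 µM over 6 months. The PTX cells were then kept in 1.5 µM paclitaxel, whereas wt cells received none, so growth in the drug and acquired resistance cannot be told apart. One mRNA library was sequenced for each of the 4 conditions, and nothing in the sources used here says whether the PTX cells were clones. Without a second library of any condition, the spread between cultures is unknown, p-values were not computed, and the lines are not replicates of each other.

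The depth of the libraries was between 43.5 and 57.9 M reads. The library labelled SW1736-PTX stood apart from its parental line: over 14692 genes its log2 values had a Pearson's r of 0.767 with SW1736 wt, 0.873 with 8505C wt and 0.933 with 8505C-PTX. These r values are across genes of single libraries, and genes are not independent replicates. Of 148 genes above 5 FPKM in 8505C wt but below 0.5 in SW1736 wt, 132 exceeded 1 FPKM in the library labelled SW1736-PTX, against 40 of the 145 genes with the opposite pattern. In 8505C-PTX, 137 of the 148 and 31 of the 145 did, so by these genes the PTX libraries were much alike. The origin of the library labelled SW1736-PTX was not tested, so a decrease in both lines may not be that of independent lines. The thyroid factor NKX2-1 was listed at 0 in SW1736 wt and lay between 30.5 and 39.0 FPKM in the other libraries, while PAX8, another thyroid factor, reached 38.2 in SW1736 wt and at most 0.206 elsewhere. The thyroid function genes TSHR and SLC5A5 were listed at 0 in every library. Group medians for SW1736-PTX are therefore also given against 8505C wt, and counts below 1/3 of wt separately for 8505C. Since the rule sets each PTX library against the lower of both wt values, every one of the 134 genes was below 1/3 of 8505C wt in SW1736-PTX as well. Without that condition, 189 genes (2.52% of the pool) were below 1/3 of their own wt in both lines.

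As background, a cell that prepares to divide loads the MCM helicase on its replication origins and activates it with CDC45 and the GINS proteins, copies its DNA with the replicative polymerases, and packs the new strands into chromatin. In mitosis, kinetochores join the chromosomes to spindle microtubules, the polymer to which paclitaxel binds. Many of the genes involved are transcribed in waves under E2F factors, which bind DNA with a DP partner and are held in check by the RB protein, and under MYBL2 and FOXM1 later in the cycle. In bulk samples, fewer cycling cells and less RNA per cycling cell cannot be told apart.

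The most frequent roles among the 134 genes were of this kind. By roles assigned by hand after the genes were known, 66 of them (49.3%) act on DNA or in the cell cycle: 15 at replication origins, helicases and forks, 9 in chromatin assembly and architecture, 3 in nucleotide supply, 7 in DNA repair, 9 as cell cycle regulators and 23 at kinetochores, the spindle, cohesion or cytokinesis. A further 13 encode mitochondrial proteins and 12 act in ribosome production, RNA processing or translation. A mixed group of 7 was labelled secreted, surface and signalling. It also holds FGF13, G0S2 and FOSL1, described below as an intracellular factor, a lipase inhibitor and an AP-1 subunit. Of the rest, 6 are actin and contraction genes, 6 belong to the ubiquitin system or are chaperones, 4 are small nucleolar RNAs and 3 act in nuclear transport. The other 17 have other or little described functions. Roles were not assigned to the rest of the pool, so these shares have no background.

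The median change of the 134 genes, as log2((PTX + 0.1)/(wt + 0.1)), was -2.17 in SW1736 and -2.11 in 8505C, and -1.97 for SW1736-PTX against 8505C wt. The corresponding medians over the pool were -0.18, -0.21 and -0.17. As fold changes, the genes were lower by a median of 4.53-fold in SW1736 and 4.39-fold in 8505C. In SW1736, 10 genes were more than 10-fold lower, including 2 listed at 0 in SW1736-PTX, and in 8505C 8 genes were. The median of the lower wt values was 21.2 FPKM, against 16.4 in the pool. Between the wt libraries, 107 of the 134 genes (79.9%) were within 1.5-fold of each other, against 66.6% of the pool, a comparison that the rule shapes because it asks for a high level in both.

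**Figure D1:**
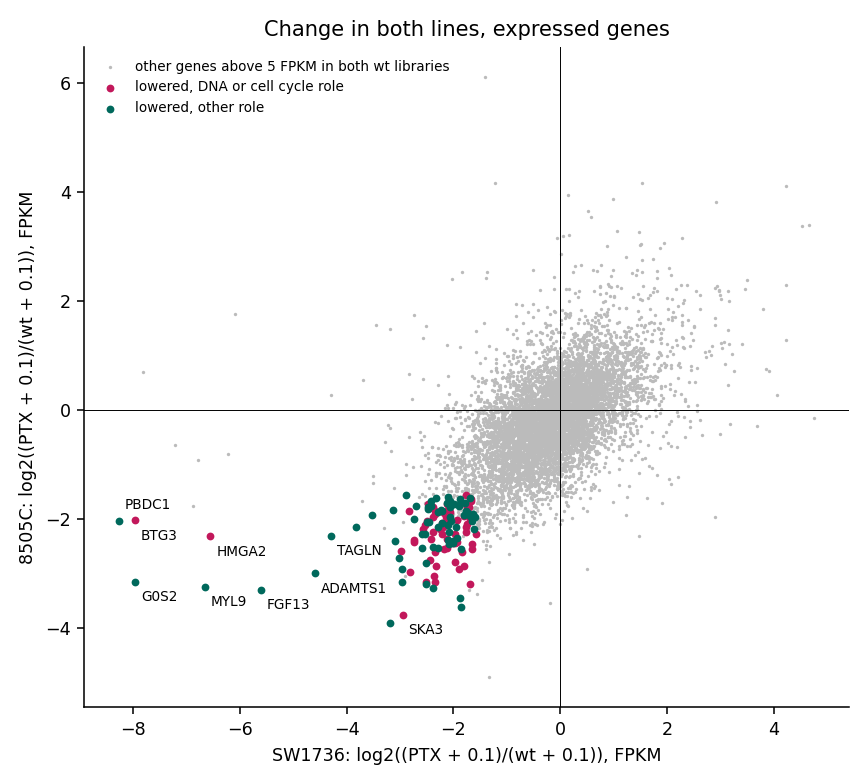
Change of each expressed gene in SW1736 (horizontal axis) and 8505C (vertical axis), as log2((PTX + 0.1)/(wt + 0.1)) of FPKM, with 1 library per condition. The 134 lowered genes (coloured by role) lie at the lower left, with medians of -2.17 and -2.11; PBDC1 and BTG3 were listed at 0 in SW1736-PTX, so their horizontal position depends on the added 0.1.

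From the depth and the transcript lengths, 125 of the 134 genes had more than 100 estimated reads in each library. The 95% counting interval of the ratio of the higher PTX to the lower wt value stayed below 1/3 for 93 genes and reached past it for 41, and it covers counting error only. Just inside the limit were ARHGAP11B (ratio 0.332) and ECT2 (0.332), and just outside it ATP5J2 (0.333), ABRACL (0.334) and WDR4 (0.334), so genes on either side of the limit had near-equal ratios. Paralogues with near-identical sequence, among them ARHGAP11B, can share reads with other loci.

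The smallest ratio, 0.092, was that of FGF13, an intracellular member of the fibroblast growth factor family that binds sodium channels and microtubules (chromosome X, 138631573 to 139205023, hg38). FGF13 fell from 12.9 FPKM to 0.167 in SW1736 and from 9.08 to 0.835 in 8505C. Its decrease was 77.05-fold in SW1736 and 10.9-fold in 8505C. G0S2, an inhibitor of the triglyceride lipase ATGL (chromosome 1, 209675325 to 209676390), fell from 110.1 FPKM to 0.345 in SW1736 and from 5.82 to 0.568 in 8505C. Its wt levels differed 18.9-fold between the lines, so its 319.5-fold decrease in SW1736 rested on the high level of SW1736 wt. Against 8505C wt, the log2 change of G0S2 in SW1736-PTX was -3.73, close to the -3.15 of 8505C itself.

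ADAMTS1, a secreted metalloprotease that cleaves matrix proteoglycans (chromosome 21, 26836287 to 26845409), fell from 78.2 FPKM to 3.17 in SW1736 and from 65.7 to 8.16 in 8505C. SKA3, a subunit of the SKA complex that holds kinetochores on microtubule ends (chromosome 13, 21153595 to 21176602), fell from 20.6 FPKM to 2.58 in SW1736 and from 21.9 to 1.53 in 8505C. Its wt levels were near-equal and its decrease was 7.98-fold in SW1736 and 14.4-fold in 8505C. The plot of the leading genes by library shows that for most of them the wt levels of the lines lay close together and the PTX levels did too. G0S2 and MYL9 departed most from this, with wt levels 18.9-fold and 16.2-fold higher in SW1736 than in 8505C.

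**Figure D2:**
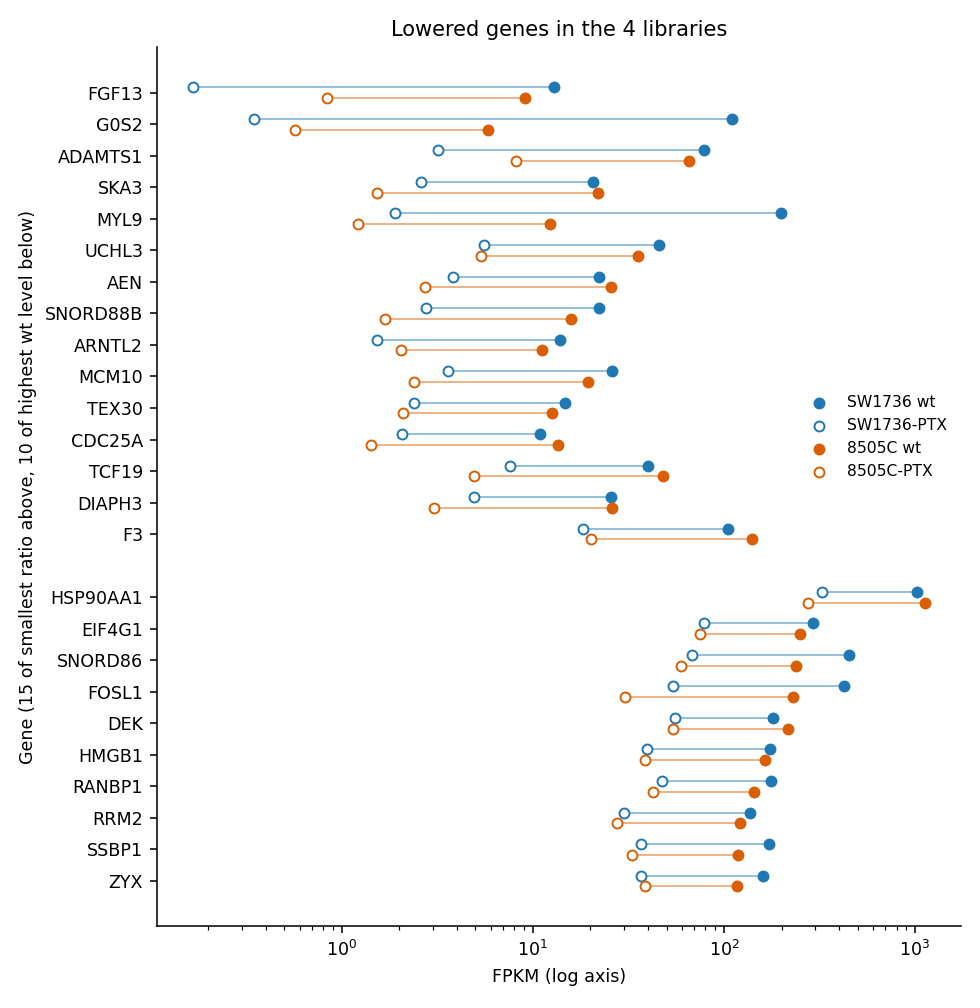
FPKM (log axis) of the 15 genes with the smallest ratio of higher PTX to lower wt value and, below them, the 10 genes with the highest wt level, in the 4 libraries, with a line joining wt (filled) and PTX (open) of each line. Every open point lies left of both filled points, as the rule requires, and HSP90AA1 is the most abundant gene, at 1030.2 FPKM in SW1736 wt and 1121 in 8505C wt.

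Among the replication genes are those of the CMG helicase, which unwinds DNA at the fork. It consists of CDC45, the MCM2 to MCM7 ring and 4 GINS proteins. Of the 11 complexes and groups counted, it had the most lowered subunits. Those complexes and groups were chosen after the lowered genes were seen, and each held a lowered gene. Its rank and the shares of its subunits are therefore descriptions. All 11 CMG subunits were in the pool, and 6 were among the 134 genes: CDC45, MCM5, MCM7, GINS1, GINS2 and GINS4. MCM7 (chromosome 7, 100092728 to 100101940) fell from 237 FPKM to 35.5 in SW1736 and from 116 to 22.2 in 8505C, that is 6.67-fold and 5.25-fold. GINS2 fell from 57.1 FPKM to 10.4 in SW1736 and from 47.99 to 7.06 in 8505C. CDC45 fell from 37.4 FPKM to 9.18 and from 29.9 to 5.47 in the respective lines. In all 3 genes each PTX library was below 1/3 of each wt library, as the rule requires.

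The other 5 CMG subunits were lower in both lines too but missed the limit. In SW1736, 6 of the 11 subunits fell below 1/3 of wt, against 6.39% of the pool, and in 8505C 10 did, against 5.56%. MCM2, MCM3 and MCM4 were lower by 4.92-, 4.50- and 4.71-fold in 8505C but by 1.85-, 1.66- and 1.46-fold in SW1736. Their wt levels were between 55.03 and 59.5 FPKM in SW1736 and between 109 and 121 in 8505C, while their levels in SW1736-PTX were 30.9, 35.7 and 37.8 FPKM. Counted against 8505C wt, 9 of the 11 subunits were below 1/3 in SW1736-PTX, where 4.31% of the pool were.

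At the steps before and after, 3 of the 6 subunits of the origin recognition complex were among the lowered genes, namely ORC1, ORC5 and ORC6. ORC1 fell from 11.9 FPKM to 3.44 in SW1736 and from 12.3 to 2.54 in 8505C, whereas ORC4, which did not belong to the group, had 5.45 and 3.85 FPKM in SW1736 and 5.19 and 3.75 in 8505C. MCM10, which helps to activate the loaded helicase, had the smallest ratio of the replication genes, 0.185, with a decrease from 25.9 FPKM to 3.60 in SW1736 and from 19.5 to 2.39 in 8505C. CLSPN, the checkpoint mediator claspin, was 3.83-fold lower in SW1736 and 8.04-fold in 8505C. MCM10 and CLSPN were the only lowered genes among 14 origin loading and firing factors. Of these factors, 9 were below 1/3 of wt in 8505C and 2 in SW1736, against 5.56% and 6.39% of the pool. DBF4, the activator of the CDC7 kinase and a neighbour of ABCB1 on chromosome 7, went the other way, with 12.2 FPKM in 8505C wt and 57.03 in 8505C-PTX, and with 17.2 and 19.3 in the SW1736 pair.

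Of 18 subunits of the replicative polymerases, their clamp and clamp loader, POLE2 and RFC3 were lowered past the limit. POLE2, a subunit of polymerase epsilon, fell from 9.66 FPKM to 1.96 in SW1736 and from 9.05 to 1.93 in 8505C. RFC3, a clamp loader subunit encoded on chromosome 13, fell from 21.4 FPKM to 4.19 and from 24.1 to 3.23. PCNA, the clamp itself, stayed outside with a ratio of 0.402. Also lowered were DNA2, a nuclease and helicase that trims Okazaki fragments, from 9.002 FPKM to 1.66 and from 6.62 to 1.33, and DTL, which directs the destruction of CDT1 at the clamp, from 16.4 FPKM to 3.15 and from 13.6 to 2.17.

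**Figure D3:**
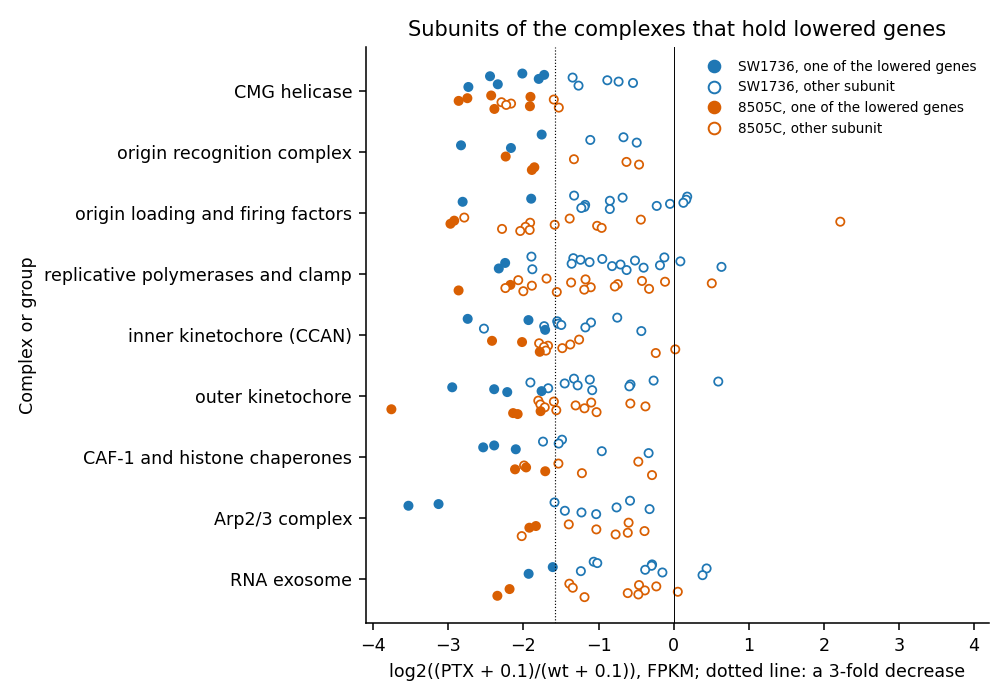
Change of each expressed subunit of 9 complexes or groups that hold at least 1 lowered gene, as log2((PTX + 0.1)/(wt + 0.1)) of FPKM, in SW1736 (blue) and 8505C (orange); filled points are among the 134 lowered genes, and vertical offsets only separate the points. All 11 CMG subunits lie left of 0 in both lines, and in 8505C 10 of them lie left of the dotted line that marks a 3-fold decrease; the isolated point on the right is DBF4 in 8505C.

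Promoters of these genes were examined because E2F sites are a known feature of replication gene promoters. They were taken from RefSeq on GRCh38.p14 as 250 bases before to 50 after the start of the gene, and were found for 110 of the 134 genes and for 6200 genes of the pool. The letters TTTCGCGC or TTTGGCGC, 2 forms of the E2F site, occurred on either strand in 11 of the 110 promoters (10.0%), in 2.50% of the pool's and in 1.18% of 27305 promoters in all. Of the 57 lowered genes with DNA or cell cycle roles that had a promoter, 10 (17.5%) held a form, and of the 53 others 1 (1.89%). The matches began between 120 bases before and 35 bases after the start. A match is a description of letters and does not show that a factor was bound. The bases printed here lie before the RefSeq start, 5′ to 3′ on the gene's strand, with up to 30 bases on each side and the match in capitals. GCGCGAAA and GCGCCAAA are the same forms read from the other strand.
CDC25A (phosphatase, chr3:48188424-48188491, minus strand): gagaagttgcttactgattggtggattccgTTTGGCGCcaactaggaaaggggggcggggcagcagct
DTL (CDT1 destruction, chr1:212035710-212035747, plus strand): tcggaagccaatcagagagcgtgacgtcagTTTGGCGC
MCM7 (helicase, chr7:100101398-100101436, minus strand): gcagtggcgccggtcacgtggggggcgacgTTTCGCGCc
TFDP1 (DP partner, chr13:113584603-113584670, plus strand): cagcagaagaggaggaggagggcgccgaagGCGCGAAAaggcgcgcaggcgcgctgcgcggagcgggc
HELLS (chromatin remodeller, chr10:94545682-94545749, plus strand): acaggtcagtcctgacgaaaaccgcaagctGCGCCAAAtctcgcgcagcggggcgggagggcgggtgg
DNAJC9 (histone chaperone, chr10:73247256-73247300, minus strand): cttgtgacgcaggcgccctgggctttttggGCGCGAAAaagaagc

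The other 5 promoters with a form were those of ARHGAP11B, EXO1, GINS1, POLE2 and SVIP. Of other letters searched on both strands, CCAAT was in 54.5% of the 110 promoters and 38.0% of the pool's, TTTGAA, the core of the CHR element of mitotic genes, in 17.3% and 8.95%, and GGGCGG, a GC box, in 67.3% and 74.1%. TATAAA was in none of the 57 promoters of DNA or cell cycle genes and in 7 of the 53 others, against 4.79% of the pool's. The shares were 12.7% and 11.02% for CACGTG, 2.73% and 3.84% for TGANTCA, 5.45% and 3.84% for TGACGTCA, 7.27% and 8.61% for TGTGGT, 9.09% and 10.5% for GGAATG, and 11.8% and 11.02% for CCGGAAGT. The NRF1 palindrome was in 3.64% and 2.63%, and an NF-kB site in none of the 110 promoters and 0.226% of the pool's. No motif in this list contains another. Over all 27305 promoters the shares were 35.7% for CCAAT, 15.4% for TTTGAA, 44.6% for GGGCGG and 12.0% for TATAAA. Median GC content of the promoters was 64.7% in the group and 66.0% in the pool.

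The chromatin genes included factors of histone deposition and abundant architectural proteins. CHAF1B, a subunit of the chromatin assembly factor CAF-1, fell from 27.5 FPKM to 5.17 in SW1736 and from 24.3 to 6.15 in 8505C. UHRF1, which recruits the maintenance DNA methyltransferase to new DNA, fell from 77.5 FPKM to 13.4 and from 58.2 to 6.43. HMGB1 and DEK, which bind and bend or fold DNA, were among the 10 genes with the highest wt level. HMGB1 fell from 174 FPKM to 39.5 in SW1736 and from 165 to 38.6 in 8505C, and DEK from 180.01 to 55.7 and from 217 to 54.3. HMGA2, another architectural protein, fell from 17.9 FPKM to 0.0921 in SW1736 and from 10.99 to 2.13 in 8505C, so that its decrease was far deeper in SW1736.

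RRM2, the small subunit of ribonucleotide reductase that supplies deoxynucleotides in S phase, fell from 137 FPKM to 29.9 in SW1736 and from 122 to 27.6 in 8505C. Its partner RRM1 was 2.51-fold and 2.61-fold lower, while the p53-induced small subunit RRM2B had 5.32 FPKM in wt and 14.2 in PTX cells of SW1736 and 10.2 and 14.3 in 8505C. The repair genes of the group were mostly of low level, with lower wt values between 5.13 and 16.8 FPKM. EXO1, a nuclease of mismatch repair and recombination, fell from 18.9 FPKM to 4.09 and from 16.8 to 2.77, and the helicase gene BLM from 6.83 to 2.09 and from 8.29 to 1.33. Of 18 expressed genes of homologous recombination and the Fanconi group, BARD1, the partner of BRCA1, was the 1 lowered past the limit, from 6.28 FPKM to 1.93 in SW1736 and from 5.98 to 1.45 in 8505C. In that list 12 genes were below 1/3 of wt in 8505C and 1 in SW1736, against 5.56% and 6.39% of the pool. The count in SW1736 was near that share.

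Among the regulators, TFDP1, the DP partner of the E2F factors (chromosome 13, 113584688 to 113641473), fell from 76.1 FPKM to 14.1 in SW1736 and from 75.2 to 14.6 in 8505C. Its levels were nearly the same between the wt libraries and between the PTX libraries, with decreases of 5.41-fold and 5.16-fold. E2F8, a repressing E2F, fell from 13.2 FPKM to 2.98 and from 9.35 to 2.56. Of the 9 expressed genes of the RB, E2F and DP family, these were the 2 past the limit. In that family 4 were below 1/3 of wt in SW1736 and 6 in 8505C, against 6.39% and 5.56% of the pool. RB1, encoded on chromosome 13 like TFDP1, was just outside with a ratio of 0.335, at 22.5 and 6.03 FPKM in SW1736 and 18.01 and 5.94 in 8505C. E2F1 was 2.69-fold and 3.80-fold lower.

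CDC25A, the phosphatase that activates cyclin-dependent kinases at the entry into S phase, fell from 10.8 FPKM to 2.06 in SW1736 and from 13.5 to 1.43 in 8505C. Of 11 expressed G1/S cyclins, kinases and inhibitors, 2 cyclin genes were in the group: CCND3, from 35.6 FPKM to 8.15 and from 44.03 to 8.49, and CCNE2, from 14.8 FPKM to 4.09 and from 23.6 to 3.80. Of the factors that drive the later waves, MYBL2 fell from 102 FPKM to 29.2 and from 97.005 to 25.01, and FOXM1 from 106 to 20.8 and from 69.6 to 19.3. MKI67, a marker of cycling cells, fell from 109.5 FPKM to 19.9 in SW1736 and from 62.8 to 17.98 in 8505C.

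BTG3, an antiproliferative gene on chromosome 21, and PBDC1, on chromosome X, were listed at exactly 0 in SW1736-PTX, and no fold change is given for them there. In the other libraries BTG3 had 24.9 FPKM in SW1736 wt, 26.7 in 8505C wt and 6.49 in 8505C-PTX, and PBDC1 had 30.5, 22.2 and 5.34. These were 2 of only 3 names that were listed at 0 in SW1736-PTX and above 5 FPKM in the other 3 libraries, while 59 such names were found for SW1736 wt, none of them among the lowered genes.

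The 23 genes of kinetochores, the spindle, cohesion and cytokinesis included both layers of the kinetochore. At the centromere, 3 of 12 expressed subunits of the inner kinetochore were lowered, namely CENPI, CENPK and CENPW. CENPI fell from 16.8 FPKM to 2.42 in SW1736 and from 8.77 to 1.56 in 8505C. At the outer kinetochore, which binds the microtubules, 4 of 15 were lowered: SKA3, SPC25, ZWINT and ZWILCH. SPC25, a subunit of the NDC80 complex, fell from 45.4 FPKM to 8.58 in SW1736 and from 33.2 to 9.66 in 8505C, and its partner NDC80, more than 3-fold lower in both lines but outside the group, had a ratio of 0.360. ZWINT, which tethers the checkpoint proteins ZW10 and ZWILCH, fell from 113 FPKM to 24.2 and from 91.7 to 21.6.

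In a separate list of 22 spindle checkpoint and kinetochore genes, all expressed, SPC25 was the only lowered gene, yet all 22 were lower in both PTX lines, with medians of -1.31 in SW1736 and -1.50 in 8505C, and -1.29 for SW1736-PTX against 8505C wt. In that list, 3 genes were below 1/3 of wt in SW1736 and 10 in 8505C, against 6.39% and 5.56% of the pool. Other lowered genes of this kind were the motor genes KIF4A, KIF20B and KIFC1, the condensin subunit gene NCAPH, and ESCO2 and PDS5B, which act on cohesin. HAUS6, a subunit of the augmin complex that branches spindle microtubules, fell from 15.02 FPKM to 2.45 in SW1736 and from 10.1 to 2.14 in 8505C. BORA, an activator of Aurora A, and MZT1, a subunit of the microtubule-nucleating gamma-tubulin ring complex, overlap at their ends on opposite strands of chromosome 13. BORA fell from 9.36 FPKM to 2.07 and from 8.43 to 1.38, and MZT1 from 16.7 to 4.19 and from 21.8 to 3.95. ECT2, which starts the contractile ring in cytokinesis, fell from 57.2 FPKM to 19.01 and from 63.7 to 13.1. None of 11 expressed tubulin genes and none of 13 microtubule-associated protein genes was in the group. With 1.79% of the pool lowered past the limit, lists this short would often hold none. The tubulin genes had medians of -0.81 in SW1736 and -0.83 in 8505C, and -0.37 for SW1736-PTX against 8505C wt. The pool had -0.18, -0.21 and -0.17.

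Outside the cell cycle, the 13 mitochondrial genes had medians of -2.21 in SW1736 and -1.85 in 8505C, and -1.90 for SW1736-PTX against 8505C wt. SSBP1, which coats single-stranded mitochondrial DNA, fell from 173 FPKM to 36.7 in SW1736 and from 118 to 32.9 in 8505C. PPIF, cyclophilin D of the permeability transition pore, fell from 132 FPKM to 9.19 and from 65.5 to 14.8, the widest gap of these genes in SW1736. CYCS, cytochrome c, fell from 56.2 FPKM to 13.2 and from 41.6 to 8.78, and reads of its processed pseudogenes may have been shared. ATAD3A and ATAD3B, near-identical neighbours on chromosome 1 between which reads can be split, were 4.21-fold and 4.22-fold lower in SW1736 and 3.45-fold and 3.20-fold in 8505C. Of 30 expressed genes of a list of the respiratory chain and mitochondrial carriers, none was in the group. At the share of the pool, 1.79%, few or none would be.

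The 12 genes of ribosome production, RNA processing and translation had medians of -2.02 in SW1736 and -2.06 in 8505C, with -1.89 when SW1736-PTX was set against 8505C wt. EIF4G1, the scaffold of the cap-binding complex, fell from 293 FPKM to 79.01 in SW1736 and from 251 to 75.1 in 8505C. NOL6, a nucleolar protein of the small subunit processome, fell from 31.1 FPKM to 5.92 and from 28.96 to 4.98. EXOSC3 and EXOSC8 were the 2 of 11 exosome subunits in the group, while EXOSC5 changed by -0.38 and 0.05 on the log2 scale. The 11 subunits had medians of -0.38 in SW1736 and -0.61 in 8505C, and of -0.56 against 8505C wt in SW1736-PTX.

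The 4 small nucleolar RNAs lie inside host genes that were not in the group, so that reads of the host could have been counted on them. SNORD86 fell from 452 FPKM to 67.9 in SW1736 and from 239 to 59.6 in 8505C, and its host NOP56 had 191 and 88.7 FPKM in SW1736 and 208 and 90.7 in 8505C. SNORD2 fell from 11.7 FPKM to 2.84 and from 9.80 to 1.73, whereas its host EIF4A2 was higher in PTX than in wt cells, with 143 and 204 FPKM in SW1736 and 119 and 224 in 8505C. SNORD88B fell from 22.2 FPKM to 2.75 and from 15.8 to 1.68, and SNORD67 from 9.03 to 1.42 and from 6.42 to 1.24. All 4 are between 69 and 111 bp long, close to the read length of 75 bp, and SNORD2, SNORD67 and SNORD88B had as few as 6.39, 7.39 and 8.18 estimated reads in a library, the fewest of the group apart from the genes listed at 0.

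The 6 actin and contraction genes had medians of -3.33 in SW1736 and -1.88 in 8505C. Against 8505C wt, their median in SW1736-PTX was -2.35, so the deeper value in SW1736 rested in part on the levels of SW1736 wt. ARPC1A, ARPC1B, MTPN and ZYX lie in a stretch of chromosome 7 described below. The 107 other expressed genes of that stretch had medians of -1.59 in SW1736 and -0.84 in 8505C. The part of position in the values of the actin genes was not tested. MYL9, the regulatory light chain of smooth muscle and non-muscle myosin, fell from 199 FPKM to 1.89 in SW1736 and from 12.3 to 1.21 in 8505C, and TAGLN, the actin binding protein transgelin, from 58.2 to 2.89 and from 21.05 to 4.18. In both genes SW1736 wt was highest. ARPC1A and ARPC1B, alternative subunits of the Arp2/3 complex that branches actin, lie next to each other on chromosome 7. ARPC1B fell from 212 FPKM to 18.2 in SW1736 and from 98.4 to 25.9 in 8505C, and ARPC1A from 191 to 21.7 and from 105 to 29.3, whereas the median of all 9 Arp2/3 subunits was -1.23 in SW1736, -1.03 in 8505C and -0.95 for SW1736-PTX against 8505C wt. ZYX, the focal adhesion protein zyxin, fell from 159.6 FPKM to 36.97 and from 117 to 38.5. Of 24 expressed genes of the actin list, TAGLN, MYL9 and ZYX were lowered past the limit, and TPM4, a tropomyosin gene outside the group, was 4.01-fold and 3.01-fold lower.

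In the mixed group labelled secreted, surface and signalling, FOSL1, an AP-1 subunit, fell from 423 FPKM to 53.96 in SW1736 and from 229 to 30.5 in 8505C. These were decreases of 7.84-fold and 7.53-fold. F3, tissue factor that starts coagulation, fell from 105 FPKM to 18.4 and from 141 to 20.1. It was the 1 lowered gene of 15 expressed YAP and TEAD targets, among which ANKRD1 was more than 3-fold higher in both lines, with 6.86 and 96.1 FPKM in SW1736 and 41.9 and 152 in 8505C.

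HSP90AA1, the inducible cytosolic HSP90 chaperone, was the most abundant gene of the group and fell from 1030.2 FPKM to 327 in SW1736 and from 1121 to 274 in 8505C. Its paralogue HSP90AB1, with which reads can be shared, had 686 and 681 FPKM in SW1736 and was 2.18-fold lower in 8505C. Of 19 expressed heat-shock chaperones, 1 was below 1/3 of wt in SW1736 and 4 in 8505C, against 6.39% and 5.56% of the pool. The count in SW1736 was near that share. UCHL3, a ubiquitin hydrolase encoded on chromosome 13, fell from 45.7 FPKM to 5.57 and from 35.5 to 5.35, and was the 1 lowered gene of 10 expressed deubiquitinases. AEN, a nuclease induced by p53, fell from 22.3 FPKM to 3.80 and from 25.5 to 2.72, and ARNTL2, a circadian transcription factor, from 13.8 to 1.53 and from 11.1 to 2.03. TCF19, a nuclear factor that rises in cycling cells, fell from 40.1 FPKM to 7.63 and from 47.97 to 4.93, and TEX30, of which little is known, from 14.7 to 2.38 and from 12.6 to 2.09. RANBP1, a regulator of the nuclear transport GTPase Ran, fell from 176 FPKM to 47.5 and from 143 to 42.5. Of 39 gene lists of pathways, cell types and families, 9 held a lowered gene and 30 held none. Each list had at most 30 expressed genes, so at the share of the pool, 1.79%, many would hold none from their size.

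The position of the genes in the genome was not used by the rule. They were spread over most chromosomes but not evenly. Chromosome 13 held 18 of the 134 genes among 115 expressed genes, that is 15.7% of them against 1.79% over all chromosomes. Chromosome 7 held 16 among 346 (4.62%), chromosome 21 held 3 among 77 (3.90%) and chromosome 10 held 10 among 288 (3.47%), whereas chromosomes 4 and 18 held none and chromosome 17 held 1 among 498. Off chromosomes 7 and 13, the share was 100 of 7034 genes (1.42%). For 8505C alone, 32 genes of chromosome 13 were below 1/3 of wt, which is 27.8% of its expressed genes against 5.56% of the pool, and in SW1736 29 (25.2%) were, against 6.39%.

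**Figure D4:**
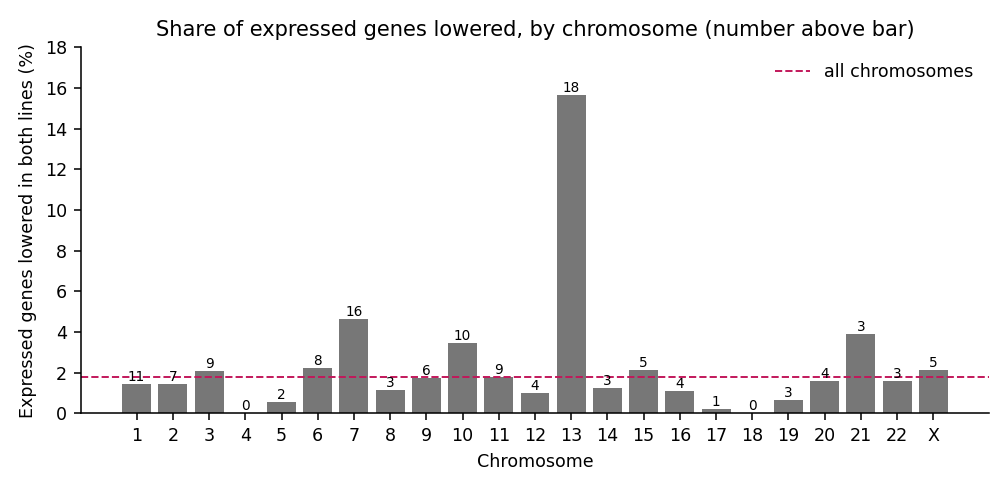
Share of expressed genes (above 5 FPKM in both wt libraries) that were lowered in both PTX lines, by chromosome, with the number of lowered genes above each bar and the share over all chromosomes, 1.79%, as a dashed line. Chromosome 13 stands highest with 18 genes (15.7%), followed by chromosome 7 with 16 (4.62%).

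The lowered genes of chromosome 13 reached from XPO4 (20777329 to 20902774) to TFDP1 (113584688 to 113641473), and 11 of the 18 had DNA or cell cycle roles, among them SKA3, RFC3, HMGB1, PDS5B, CDK8, CKAP2, DIAPH3, BORA, MZT1 and TFDP1. DIAPH3, a formin that builds actin filaments, fell from 25.6 FPKM to 4.89 in SW1736 and from 25.98 to 3.05 in 8505C. The chromosome's other 97 expressed genes were lower as well, with medians of -1.06 in SW1736 and -0.92 in 8505C and of -0.97 for SW1736-PTX against 8505C wt. Of them, 82 (84.5%) were lower in both lines, against 44.4% of all other expressed genes. The median of the 18 lowered genes themselves was -2.13 in SW1736 and -2.40 in 8505C, and -2.34 for SW1736-PTX against 8505C wt. No DNA data were analysed, and the part of the chromosome-wide shift in the lowered genes' values was not tested.

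On chromosome 7, 15 of the 16 genes lay beyond ABCB1, the drug efflux pump gene, in the span from ARPC1A to ZYX (99325873 to 143391111). In this span 15 of 122 expressed genes (12.3%) were lowered past the limit, against 1 of 171 before ABCB1. The other 107 genes of the span had medians of -1.59 in SW1736, -0.84 in 8505C and -0.91 for SW1736-PTX against 8505C wt, and 92 of them (86.0%) were lower in both lines. In contrast, the 22 expressed genes between ABCB1 and the span had medians of 0.69 in SW1736 and 0.32 in 8505C, and of 0.79 for SW1736-PTX against 8505C wt. The span was drawn around the lowered genes after their positions were seen. Only 2 of the 15 genes, MCM7 and ORC5, had a DNA or cell cycle role. The plot of changes along chromosomes 13 and 7 shows the lowered genes among neighbours that were mostly lower too.

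**Figure D5:**
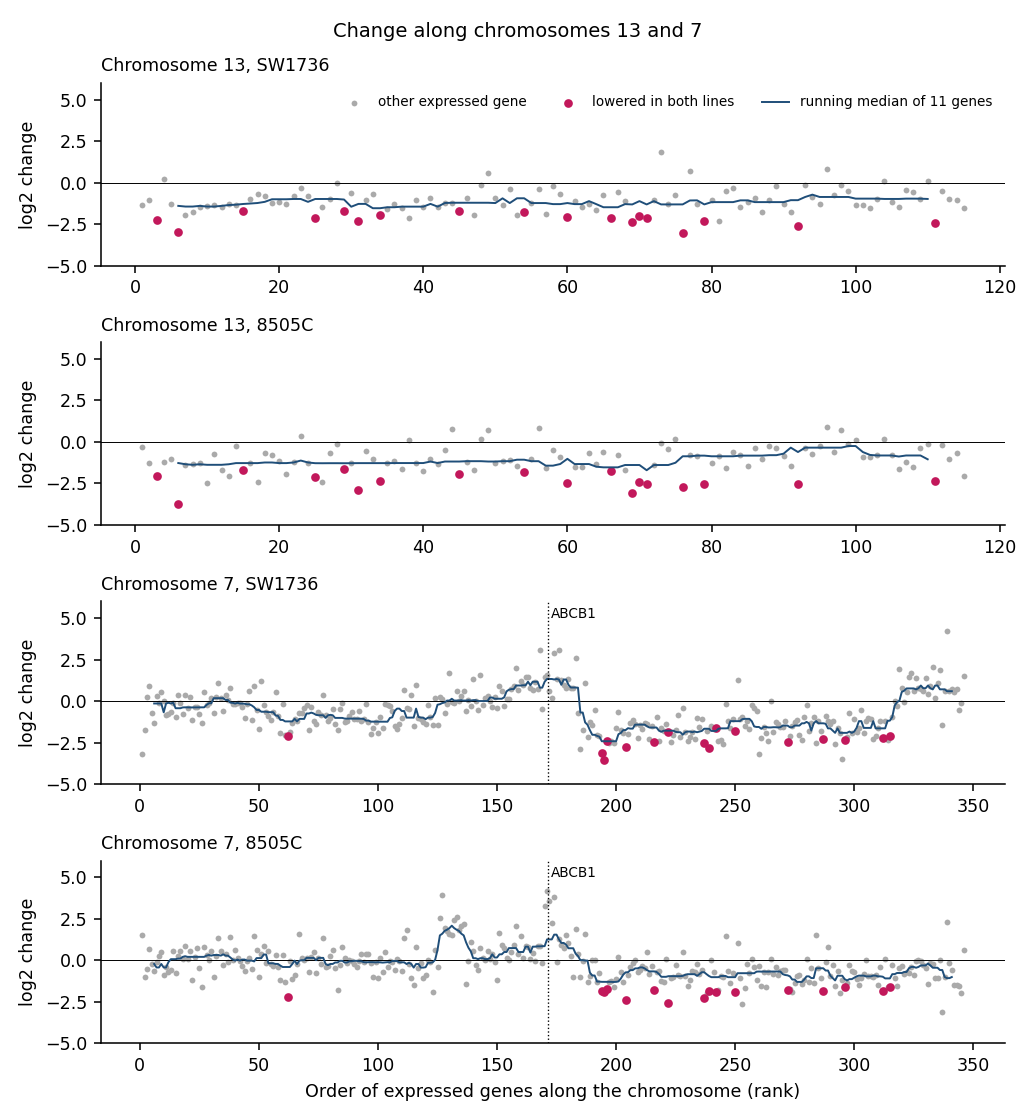
Change of expressed genes in their order along chromosomes 13 and 7 in each line, as log2((PTX + 0.1)/(wt + 0.1)) of FPKM, with the lowered genes as large points, a running median of 11 genes as a line, and a dotted line at ABCB1. On chromosome 13 most points lie below 0 in both lines, with medians of -1.06 in SW1736 and -0.92 in 8505C for the other genes. On chromosome 7 the genes between ABCB1 and ARPC1A had medians of 0.69 and 0.32. The other genes in the span from ARPC1A to ZYX had -1.59 and -0.84, and those before ABCB1 had -0.36 and 0.078.

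The nearest expressed genes on either side of the 134, which are not themselves in the group, were lower too. Over all 251 such neighbours, the median was -0.73 in SW1736 and -0.40 in 8505C, against -0.16 and -0.19 for all other expressed genes. For 31 neighbours on chromosome 13 the medians were -1.01 and -1.04, and for 25 in the span of chromosome 7 they were -1.66 and -0.75. All other expressed genes had -1.06 and -0.92 on chromosome 13 and -1.59 and -0.84 in the span, so the neighbours there were near the level of their region. For the 195 neighbours elsewhere the medians were -0.47 and -0.29, against -0.14 and -0.18 for other expressed genes off chromosomes 7 and 13. With 8505C wt as the reference of SW1736-PTX, the medians were -0.46 over all neighbours, against -0.16 for the other expressed genes, -0.91 on chromosome 13, -0.95 in the span of chromosome 7 and -0.33 elsewhere. The shift of the neighbours in SW1736 was thus smaller with this reference, most of all on chromosome 7. In 8505C, 6.77% of all neighbours were below 1/3 of wt, near the 5.56% of the pool, and in SW1736 17.5% were, against 6.39%. Expressed genes of chromosomes 21, X and 10 other than the lowered ones had medians of -1.49, -0.90 and -0.82 in SW1736 but of -0.37, -0.15 and -0.18 in 8505C. For SW1736-PTX against 8505C wt they were -1.21, -0.16 and -0.15, so with this reference chromosomes X and 10 were near the -0.17 of the pool and chromosome 21 was not.

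Some lowered genes lay near each other, with 22 of the 134 within 1 Mb of another. Besides BORA and MZT1, these included ARPC1A, ARPC1B and PDAP1, then MCM7 and POP7, and DNAJC2 and ORC5, all on chromosome 7. On other chromosomes they were SKA3 and XPO4, POLE2 and LRR1, MMS22L and NDUFAF4, NCEH1 and ECT2, CDC45 and RANBP1, and ATAD3A and ATAD3B. Of the 134 genes, 24 overlapped an expressed gene on the other strand and 10 one on the same strand. Whether strand was used in quantification is not given in the sources used here, so reads of such pairs may not have been told apart.

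Between the PTX libraries, 103 of the 134 genes (76.9%) were within 1.5-fold of each other, against 81.7% of the pool. Of the 134, 93 were lower in 8505C-PTX than in SW1736-PTX. The opposite group, genes of the pool whose lower PTX value was more than 3 times the higher wt value, held 34 genes, 0.454% of the pool. Genes low in wt cells cannot enter the pool, so raised genes of that kind were not counted. The 34 and the 134 genes therefore cannot show whether decreases outnumbered increases.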

How the data were processed

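One mRNA library each of SW1736 wt, SW1736-PTX, 8505C wt and 8505C-PTX was analysed. Per the labels and the paper's methods, the authors demultiplexed single-end 75 bp reads with bcl2fastq 2.20, masked adapters with Cutadapt, trimmed with ERNE, aligned to hg38 with STAR and quantified genes with StringTie, whose annotation and versions are not given in the sources used here. The deposited FPKM, used for all results, scales fragments to gene length and depth. The deposited TPM, an alternative, has an equal total in each library. The deposited coverage signal is the mean read depth per base, and its highest ratio to FPKM gave the depth. There were no counts and no replicates, so no count model and no p-value was computed.

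FPKM was summed per gene name. A gene was called lowered below 1/3 of wt, without a pseudocount, and log2 changes used a pseudocount of 0.1, which understates changes of low genes. Estimated reads used canonical transcript lengths of GENCODE release 44, and their 95% intervals cover counting error only. Promoters came from RefSeq on GRCh38.p14, whose gene starts can differ from those of the deposited tables. The members and lists were chosen with earlier results of these data known. Complexes, roles and the CHR motif were chosen after the members were seen. Named genes were the 15 with the smallest ratio, the 10 with the highest wt level, those in a gene list, those within 1 Mb of another member, the 3 on each side of the limit, other genes of those lists changed more than 3-fold in both lines, and close partners; others were chosen after their values were seen. Some genes that this rule names are not reported here. The rule was run on simulated data with a fixed decrease and counting noise only. That run does not cover the spread between cultures or genes near the limit. Scripts ran under Python 3.11.15 with pandas 2.3.3 and NumPy 2.4.6, and plots were drawn by matplotlib 3.10.9.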

Additional observations from a re-analysis of the deposited data

Results flagged for a closer look

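Each group given here had medians of opposite sign in the lines, a difference that was not tested because each condition has 1 library. The 15 expressed YAP and TEAD targets, which include F3, had a median log2 change of 0.24 in SW1736 and -0.45 in 8505C. The 16 expressed genes of TGF-beta, activin and BMP signalling had medians of -0.034 and 0.54. On chromosome 7, the 31 expressed genes after the last lowered gene had medians of 0.70 in SW1736 and -0.59 in 8505C, and the 170 other genes before ABCB1 had medians of -0.36 and 0.078. Against 8505C wt, SW1736-PTX had medians of -0.45, 0.09, 1.54 and 0.13 for these groups in the same order.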

How the results depend on the processing

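The number of lowered genes was 134 and stayed within 1.5 times this value with TPM (186 genes), with wt limits of 2 and 10 FPKM (164 and 107), with the highest row per name (134), with names of 1 row above 0 (134) and after centring the libraries on their median (92, all among the 134). It moved with the limit, to 477 below 1/2 and 44 below 1/4, and with the reference, to 241 with 8505C wt alone and 600 with SW1736 wt alone. The pools differed too, with 8177 names above 5 FPKM in 8505C wt, 8419 in SW1736 wt and 9375 genes with TPM, against 7495. The counts with a single wt reference and with TPM therefore reflect a larger pool as well. Chosen after seeing the data, 8505C-PTX alone against both wt libraries gave 289 genes, SW1736-PTX alone 215, and 8505C-PTX against 8505C wt alone 417, with 32 genes on chromosome 13 and 10 CMG subunits. The genes below 1/3 of wt numbered 479 in SW1736 and 417 in 8505C, 1314 and 1227 below 1/2, and 224 and 161 below 1/4. Within the pool, decreases were 68.8% and 70.2% of the changes past 3-fold in SW1736 and 8505C, and 58.9% and 57.0% after centring. The wt limit of the pool favours decreases, because genes low in wt cells cannot enter it. These shares therefore do not describe all genes, and the paper, with other limits, reported more raised than lowered genes in both lines. Centring moved the median of the pool from -0.18 and -0.21 to -0.06 and -0.05.

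The median of the neighbours in SW1736 was -0.67 with a pseudocount of 1, -0.78 with TPM and -0.36 for all genes within 1 Mb, and -0.24 within 1 Mb in 8505C. Of 216 ratios of named genes under alternatives, 203 stayed below 1/3; the other 13, among them HSP90AA1, EIF4G1, DEK and E2F8, passed it on centring. All 80 list medians under alternatives kept their sign where the median was beyond 0.1. The log2 changes pair each PTX line with its own parental line, but no paired test within a line was possible with 1 library per condition. A fit of line plus selection over the 4 libraries, which would treat the lines as replicates of each other, was not run. With 1 library per condition, no replicate could be left out.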
